A study of Mus musculus with 5 samples.

Results

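The miR-181 family was examined in Ago HITS-CLIP tables of developing mouse liver. The members were every entry assigned to mmu-miR-181a-5p, mmu-miR-181b-5p, mmu-miR-181c-5p or mmu-miR-181d-5p, and entries at the same position were counted as 1 site. This gave 3904 sites of 1764811 sites of all seed families, and 4 miRNAs of 995, which form 1 of 852 seed families. Ago HITS-CLIP fixes RNA to Ago proteins with ultraviolet light, here in 3 exposures, precipitates the complexes and sequences the RNA held in them, both the miRNAs and the fragments of their targets. The livers came from C57BL/6 mice, given as C57BL/6J in the methods, with no genetic change or treatment named in the labels, at 3 embryonic days (e12.5, e15.5, e18.5), at postnatal day 7 (P7) and in adults of 6 to 8 weeks. Where 5 values are given in a row without stage names, they follow this order. Ago2 was precipitated at all 5 stages, with Wako and Abnova antibodies named for the embryos, and Ago1 antibody from MBL was added at P7 and in the adult. The added antibody and the stages after birth therefore cannot be told apart. The labels give 1 sample per stage, so differences between stages are differences between these samples and carry no test. The methods name biological replicates for Ago2, and each embryonic table holds 2 lists that were joined here. The supplement names a further replicate library for e18.5 and for no other stage, and does not tie it to a list. Intervals are 95% intervals of counting error only, and whether the listed reads were reduced to distinct molecules is not stated in the tables.

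A miRNA is held by an Ago protein and guides it to RNAs that pair with its seed, bases 2 to 8 from the 5′ end. Pairing in the 3′UTR is the form best known to lower the stability and translation of an mRNA, and pairing in coding sequence (CDS) is also seen in Ago crosslinking. The miR-181 family is known for its roles in lymphocyte development, in the differentiation of blood cells and in signalling of T cells, and the fetal liver is a main site of blood formation before birth.

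The mature sequences are shown because the members share their seed, given in capitals, and part from each other only behind it (RefSeq, GRCm38.p6, 5′ to 3′):
mmu-miR-181a-5p: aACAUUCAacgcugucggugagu
mmu-miR-181b-5p: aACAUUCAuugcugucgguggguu
mmu-miR-181c-5p: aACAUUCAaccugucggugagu
mmu-miR-181d-5p: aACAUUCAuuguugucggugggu
miR-181a-5p and miR-181c-5p were the same over the first 10 bases and 1 edit apart in all. The pair of miR-181b-5p and miR-181d-5p shared the first 11 bases and was 2 edits apart. Between these pairs the sequences parted after base 8 and lay 4 or 5 edits apart. The genes lie in 3 clusters on GRCm38. Mir181a-1 (mature miRNA at chr1:137966468-137966490, + strand) precedes Mir181b-1 by 182 bases between the mature starts. Mir181a-2 (chr2:38852741-38852763, + strand) precedes Mir181b-2 by 1104 bases, and Mir181c (chr8:84178924-84178945, − strand) lies 165 bases from Mir181d. For miR-181a-5p and for miR-181b-5p the mature sequence is the same from both genes, so their reads cannot be split between the chromosome 1 and chromosome 2 clusters.

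The target side of the pairing is GAATGT, the 6 bases that face bases 2 to 7 of the miRNA. This core was found in the GRCm38 sequence at all 3904 sites, on the listed strand. A 6mer site holds the core alone, a 7mer-m8 site has T before it, a 7mer-A1 site has A after it, and an 8mer site has both. The 3′UTR sites of 7 or 8 bases that were listed at all 5 stages are shown first, since no stage lacked them (GRCm38, 30 bases, 5′ to 3′ on the mRNA strand, match in capitals):
Ppap2b, 7mer-A1: tccgatctcatcagacagtaGAATGTAggg
Psmd1, 7mer-A1: cccaattcttagaagatctgGAATGTAtac
Ccnf, 7mer-m8: gtgttagccttcactatggTGAATGTttac
Cnot6l, 8mer: tactaataagcatcctgtgTGAATGTActt
Mknk2, 7mer-m8: cctgttcttgaagagtactTGAATGTcggg
Cbx5, 7mer-m8: agatgttgacagtgttttgTGAATGTtgga
They lie at chr4:105231077-105231106 (+), chr1:86092005-86092034 (+), chr17:24223858-24223887 (−), chr5:96073487-96073516 (−), chr10:80665860-80665889 (−) and chr15:103192749-103192778 (−), in the same order. The Psmd1 site is annotated as both CDS and 3′UTR in different transcripts, and the others as 3′UTR.

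The sites of the zinc finger gene Zfp961 show another pattern, the same match repeated along 1 coding sequence (chr8, + strand, 8mer sites):
Zfp961, from 71968057: aatatgtaaagaaatactaTGAATGTAaag
Zfp961, from 71968303: ttcactctggagagataccTGAATGTAagg
Zfp961, from 71968555: acactggagagaaaccttaTGAATGTAtgc
Zfp961, from 71968807: acactggagagaagccctaTGAATGTAagg
Zfp961, from 71968888: cacacaaaaggcagtcctaTGAATGTAagg
The bases in front of the match resemble each other in these windows as well, and the coding context of such sites is described with the CDS sites.

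The 4 members were counted through a whole number in each entry name, taken as the read number of the miRNA and given as reads per 1000000 miRNA reads of the library (rpm). The miRNA reads behind these shares were between 7781484 and 25546696 per library. The family as a whole stood at 5581, 8623, 8535, 4225 and 1114 rpm, highest at e15.5 and e18.5 and lowest in the adult. It was 5.01-fold lower in the adult than at e12.5, or −2.32 on the log2 scale. The median of all miRNAs with at least 10 rpm at either stage was −2.07 on the same scale, and 251 of 418 of them (60.0%) were at least 2-fold lower. Of the 4 members, 3 were at least 2-fold lower, so the direction of the family was that of most miRNAs. Scaling by the study's total reads of each library in place of the miRNA reads shifts all miRNAs alike and put the family at −1.33.

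miR-181b-5p was the leading member before birth. mmu-miR-181b-5p stood at 3600, 5069, 5980, 1939 and 361 rpm, and its rank among all miRNAs went from 33 at e12.5 and 24 at e18.5 to 82 in the adult. mmu-miR-181a-5p stood at 1275, 2631, 1550, 1759 and 654 rpm, at ranks between 46 and 68. miR-181b-5p was 9.97-fold lower in the adult than at e12.5 (log2 difference −3.31), and miR-181a-5p was 1.95-fold lower (−0.96), on either side of the median of all miRNAs. The difference within the family does not depend on the scale, since both are read from the same library.

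The ratio of miR-181b-5p to miR-181a-5p was 2.82, 1.93, 3.86, 1.10 and 0.553, with intervals from 2.79 to 2.86 for the first and from 0.538 to 0.568 for the last. The family was thus led by miR-181b-5p at each embryonic stage, near parity at P7 and led by miR-181a-5p in the adult, where the latter made up 58.7% of the family's reads against 22.9% at e12.5. The embryonic tables each hold 2 lists that the labels do not explain, and the ratio was above 1 in each list, from 1.5 in the first list of e15.5 to 4.26 in the first list of e18.5. The lists of e15.5 were far apart in the family's level, at 3742 and 10232 rpm, so the peak at e15.5 rests on the second list.

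miR-181d-5p and miR-181c-5p, which come from the chromosome 8 cluster, were the lesser members. mmu-miR-181d-5p stood at 637, 827, 890, 437 and 85.0 rpm. mmu-miR-181c-5p stood at 67.9, 96.0, 116, 90.7 and 14.4 rpm and was the lowest member at every stage. miR-181d-5p was 9.38 times as abundant as miR-181c-5p at e12.5 and 5.92 times in the adult. The lists were again far apart at e15.5, with 182 and 1040 rpm of miR-181d-5p against 94.2 and 96.6 rpm of miR-181c-5p, so the order of the embryonic stages is not settled for miR-181d-5p. At e18.5 the lists gave 954 and 705 rpm of miR-181d-5p and 100 and 160 rpm of miR-181c-5p.

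**Figure D1:**
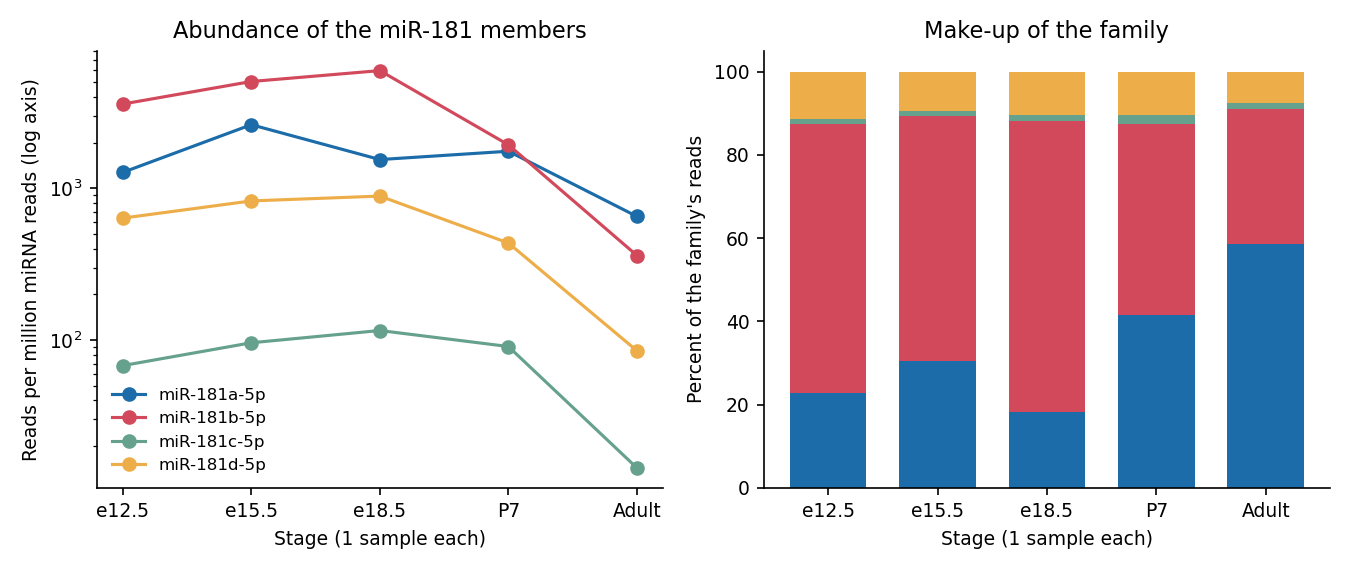
Abundance of the miR-181 members by stage, 1 sample each. Left, rpm of the miRNA reads on a log axis; right, percent of the family's reads taken by each member, in the colours of the left panel. miR-181b-5p leads at the embryonic stages, and miR-181a-5p holds 58.7% of the family's reads in the adult.

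The strand opposite to the mature miRNA, the 3p arm, was rare for most members but not for miR-181c. miR-181c-3p stood at 40.4, 74.0, 85.1, 169 and 19.5 rpm, and at P7 and in the adult it was above the 90.7 and 14.4 rpm of the 5p arm from the same hairpin. In contrast, miR-181a-1-3p was highest at P7 with 32.3 rpm, against 1759 rpm of miR-181a-5p.

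Of 251 other miRNAs that reached 100 rpm in at least 1 library, the 5 whose course over the 5 stages lay nearest to that of the family were miR-20b-5p, miR-342-5p, miR-25-3p, miR-322-5p and miR-484. The measure was the Euclidean distance of centred log2(rpm + 1) values over the 5 stages. miR-20b-5p was nearest, at a distance of 0.382, with 128, 166, 217, 76.9 and 24.0 rpm. miR-484, the fifth, was at 0.806. The distances rest on 1 sample per stage and are a description only.

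Because the seed is shared, all 4 members could have been listed at every site, yet they were not. All 4 were listed at 2178 sites (55.8%), and miR-181a-5p alone at 588 (15.1%). miR-181a-5p was listed at 3805 sites, miR-181c-5p at 3029, miR-181b-5p at 2879 and miR-181d-5p at 2500. The entries carry a predicted free energy of the duplex, and the weakest listed value was −2.75 for miR-181a-5p, −4.2 for miR-181c-5p, −3.9 for miR-181b-5p and −5 for miR-181d-5p. The member with the most sites was thus also the one listed with the weakest duplexes, and how the authors set these limits is not given in the sources used here. A listing shows a seed match in an Ago cluster, and it does not show which member, or which other miRNA with a match in the cluster, was bound.

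The tables of the 5 stages listed 2024, 950, 811, 1097 and 588 sites, fewest in the adult. Of the 3904 sites, 2927 were listed at 1 stage, 603 at 2, 211 at 3, 111 at 4 and 52 at all 5. The same count over all seed families is not given here, so these numbers do not set miR-181 apart. The CDS without the 3′UTR held 1334 sites, the 3′UTR without the CDS 906, and 136 sites were annotated as both. A further 576 lay in introns, 770 outside genes, 35 in the 5′UTR and 147 in other exons. Exons of miRNA genes held 8 of all sites. The 6mer was the most frequent type with 52.1% of sites, followed by the 7mer-m8 with 26.5%, the 7mer-A1 with 10.9% and the 8mer with 10.6%.

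The share of Ago clusters that held a miR-181 site was compared between stages. A share allows for the number of clusters in a table, but can still depend on its depth and on the joining of lists. A cluster is a group of overlapping reads. In the 3′UTR, 543 of 39452 clusters had a miR-181 site at e12.5, or 1.38% (1.27 to 1.5). The shares of the next 3 stages were 1.57% (1.40 to 1.76), 1.49% (1.32 to 1.69) and 1.13% (1.01 to 1.26). In the adult it was 0.741% (0.620 to 0.887), from 118 of 15914 clusters. The adult share lay below those of the other 4 stages with no overlap of the intervals, and was 1.86-fold lower than at e12.5 (1.52 to 2.26). This 3′UTR ratio was not taken for single lists of the e12.5 table.

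The same ratio was taken for the 307 seed families that had 50 or more clusters in the 3′UTR at each of these stages. Of these, 26 (8.47%) were at least 1.5-fold lower in the adult, and the median ratio of adult over e12.5 was 0.955. miR-181 had the third lowest ratio, 0.539, with 2 families below it. The family was thus among the 26.

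In the CDS the same comparison gave a smaller difference. The share of CDS clusters with a miR-181 site was 1.19%, 1.29%, 1.21%, 0.961% and 0.869%. The adult share was 1.36-fold lower than that of e12.5 (1.20 to 1.55). Here 14 of 378 families (3.70%) were at least 1.5-fold lower, and miR-181 was not among them, at rank 42 from the lowest. Over all clusters the share went from 0.969% at e12.5 to 0.722% in the adult, 1.34-fold lower (1.23 to 1.47). The first list of the e12.5 table alone gave a log2 difference of −0.24 over all clusters, against −0.43 with both lists.

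The same ratio was taken for each type of site. Over all regions, 8mer sites were in 0.100% of clusters at e12.5 (209 clusters) and in 0.0394% in the adult (32 clusters), 2.55-fold lower (1.76 to 3.69), whereas 6mer sites were 1.21-fold lower (1.07 to 1.36). In the CDS the 8mer share was 3.34-fold lower (1.75 to 6.38) and the 6mer share 1.23-fold lower (1.04 to 1.45). In the 3′UTR the values were 2.07-fold (1.17 to 3.68) for the 8mer, 2.16-fold (1.45 to 3.20) for the 7mer-m8, 1.76-fold (0.984 to 3.14) for the 7mer-A1 and 1.69-fold (1.28 to 2.23) for the 6mer. In introns the values were 1.59-fold (0.831 to 3.04) for the 8mer, 1.07-fold (0.726 to 1.56) for the 7mer-m8, 1.73-fold (0.847 to 3.52) for the 7mer-A1 and 1.22-fold (0.912 to 1.63) for the 6mer, each with an interval that includes 1, while all types pooled gave 1.25-fold (1.02 to 1.54). The CDS 8mer value rests on 11 adult clusters, and its interval overlaps that of the 3′UTR 8mer. Of the family's sites, 5.44% were 8mers in the adult and at least 10.3% at each of the other 4 stages. Values by site type are not given for other seed families. The larger 8mer difference is therefore not shown to be particular to miR-181.

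**Figure D2:**
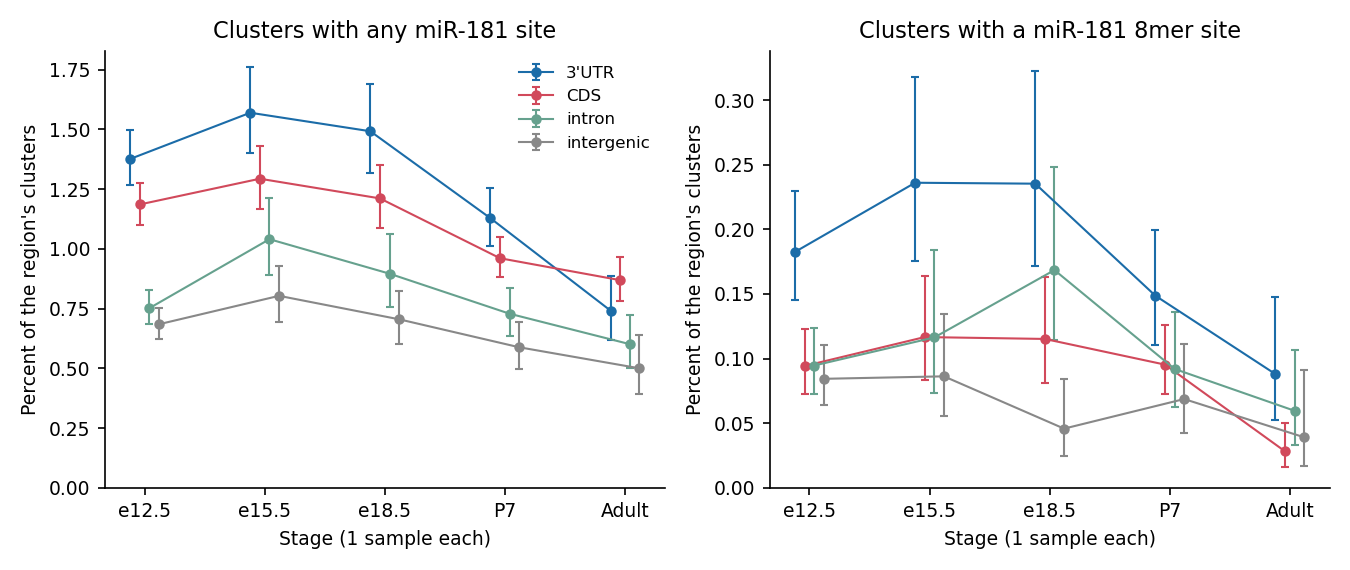
Percent of the clusters of each region that held a miR-181 site (left, any type; right, 8mer), by stage, 1 sample each, with 95% Wilson intervals as bars. The 3′UTR share is the highest of the 4 regions until P7 and 0.741% in the adult, below the 0.869% of the CDS.

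**Figure D3:**
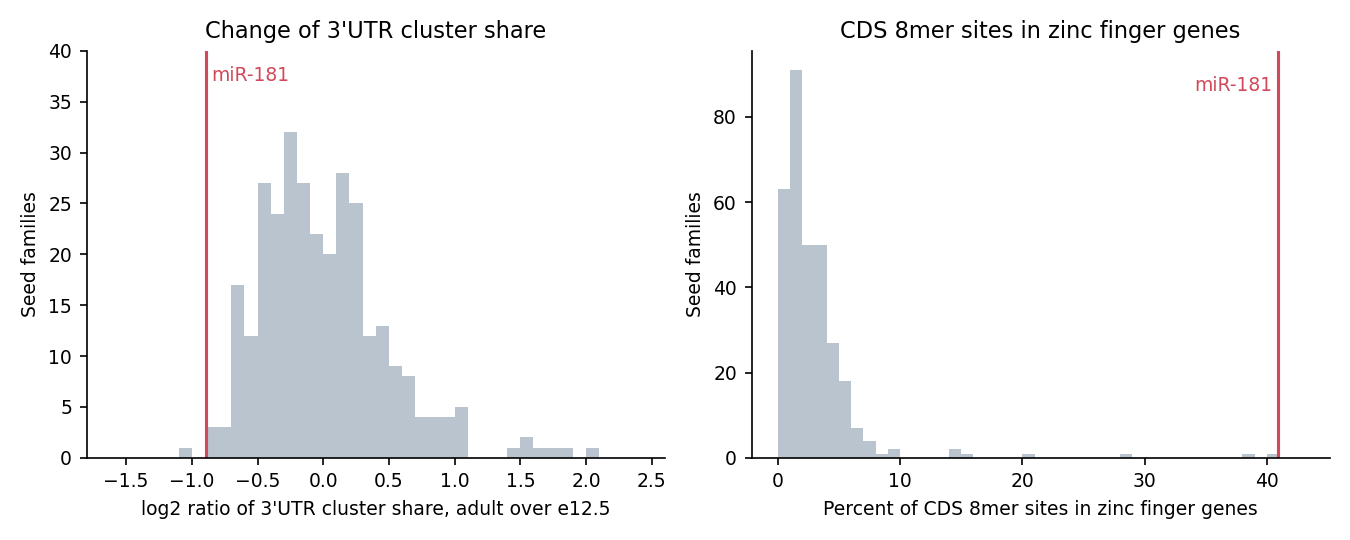
Seed families as histograms, with the miR-181 family at the red line. Left, log2 ratio of the 3′UTR cluster share, adult over e12.5, for 307 families; right, percent of CDS 8mer sites that lie in zinc finger genes, for 320 families, where miR-181 stands at 40.9% and the median at 2.06%.

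With the 3′UTR share lower, the sites of the family on mRNAs were more often coding in the adult. The CDS held 58.3% (55.4 to 61.0), 58.6%, 59.3%, 63.4% and 78.0% (73.9 to 81.7) of the family's mRNA sites, similar up to e18.5 and highest in the adult. The median of the seed families with at least 50 mRNA sites was 62.0% at e12.5 and 74.5% in the adult, so a higher coding share in the adult was common to seed families. The miR-181 family moved from below the median, with 410 of 628 families above it at e12.5, to above it, with 135 of 483 families above it in the adult. Over the 5 libraries joined, 1470 of 2411 mRNA sites (61.0%) were in the CDS.

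The conservation score, which runs from 0 to 1, was compared between 8mer and 6mer sites over the 5 stages joined. In the 3′UTR alone, the median score was 0.997 for 129 8mer sites and 0.194 for 409 6mer sites. In the CDS alone it was 0.563 for 117 8mer sites and 0.987 for 772 6mer sites. The 3′UTR 8mer sites thus had the higher median, and the CDS 8mer sites the lower one. The CDS medians did not differ in this way at e15.5, at 0.993 for 8mers and 0.991 for 6mers.

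Many of the CDS 8mer sites lay in genes of C2H2 zinc finger proteins, a very large group of DNA-binding proteins in which short fingers, each holding zinc with a pair of cysteines and a pair of histidines, follow each other many times. A gene was counted here as a zinc finger gene when a GENCODE M21 coding sequence, translated from the genome, held at least 3 finger patterns, which was so for 639 of 21733 genes (2.94%). Of the 127 CDS 8mer sites of the family, 52 (40.9%, 32.8 to 49.6) lay in such genes. This was the highest share among 320 seed families with at least 50 CDS 8mer sites, whose median was 2.06%. miR-3068-3p came next with 38.5% of 52 sites, and miR-188-3p after it with 28.2% of 277. Over all site types, 9.05% of the family's CDS sites were in zinc finger genes against a median of 2.15% in 813 families, with miR-135a-1-3p and miR-3068-3p above it.

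The reading frame was then compared, for the 1381 of 1470 CDS sites that could be placed in a coding sequence. Read from the first base of a codon, GAATGT gives a glutamate and a cysteine codon. In zinc finger genes, 118 of 132 placed sites (89.4%, 83.0 to 93.6) were in this frame, against 388 of 1249 (31.1%, 28.6 to 33.7) in other genes. Of the 118, 102 (86.4%) lay on a cysteine of a finger pattern that binds zinc. The 49 8mer sites in this frame were still more uniform, with 47 of them on the first cysteine of a finger. Only listed sites were placed. How often the same match occurs in zinc finger coding sequence without an Ago cluster was not counted. The shares in zinc finger genes and in this frame therefore do not show a preference of Ago for these sites. A site that begins with T could not be read with the core at the second codon base without the stop codon TGA, and 0 of 336 7mer-m8 sites and 0 of 116 8mer sites were in that frame, compared with 111 of 804 6mer sites.

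**Figure D4:**
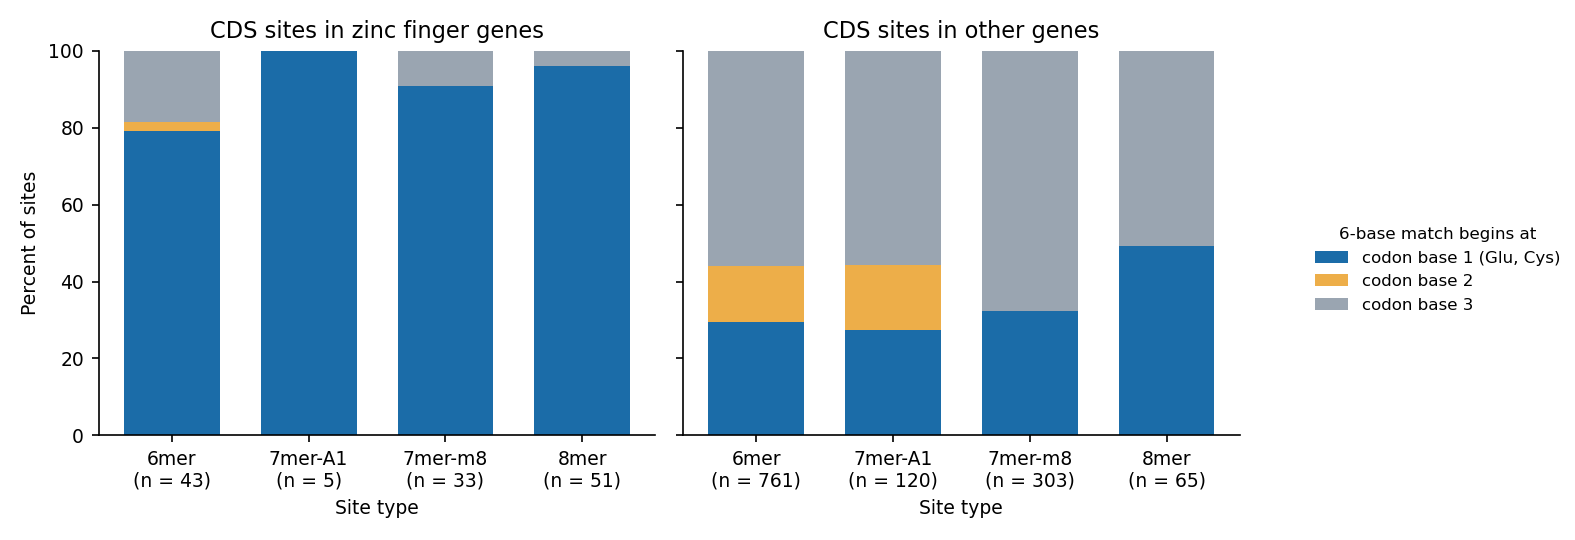
Codon position at which the 6-base core of CDS sites begins, as percent of the placed sites of each type, in zinc finger genes (left) and other genes (right), with the number of sites under each bar. In zinc finger genes 89.4% of all sites begin at the first codon base.

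Zinc finger genes were a smaller part of the coding sites in the adult. They held 9.45%, 9.06%, 9.80%, 8.75% and 2.17% of the placed CDS sites, the adult value resting on 7 of 323 sites (interval 1.05 to 4.41). Clusters of zinc finger genes were also a smaller part of all CDS clusters, 2.59% at e12.5 and 1.43% in the adult. Without zinc finger genes, the share of CDS clusters with an 8mer site was 2.62-fold lower in the adult than at e12.5 (1.21 to 5.70), against 3.34-fold (1.75 to 6.38) with them, and rested on 8 adult clusters. The zinc finger sites had a median of 25 reads at the stage of the highest number, close to the 29 of the other placed CDS sites, and 77.3% of them were listed at 1 stage, compared with 65.8% of the others.

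A miR-181 site in the CDS was listed for 1278 genes and one in the 3′UTR for 932, with 246 genes in both sets. By stage, 509, 268, 231, 324 and 114 genes had a 3′UTR site, and 629, 346, 302, 476 and 329 a CDS site. Genes with a CDS site were more numerous than genes with a 3′UTR site at every stage. A 3′UTR site was listed at all 5 stages for 10 genes and a CDS site for 30, without the same count for other seed families.

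Genes with several sites were counted next, without the same count for other seed families. At least 2 sites in any region were listed for 463 of 2589 genes, and at least 2 in the CDS, 3′UTR or 5′UTR for 343 of 1991. Of the 463 genes, 27 (5.83%, 4.04 to 8.35) had a zinc finger symbol such as Zfp or Zscan, against 95 of the 2589 genes with at least 1 site (3.67%, 3.01 to 4.46), which include the 463. In the CDS the share of zinc finger symbols was 5.40% of 1278 genes with at least 1 site, 13.3% of 150 with at least 2 and 23.7% (13 to 39.2) of 38 with at least 3. These shares are likewise not given for other seed families, so the rise is not shown to be particular to miR-181.

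Ahnak, a very large scaffold protein with an internally repeated sequence, had 4 of its 5 coding sites in identical windows and with the same read numbers, 18 at e12.5 and 11 in the adult. The reads of these repeats cannot be assigned to 1 of them. Its 3′UTR held an 8mer site with 122 reads at e12.5 and none at the other stages.

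Zfp26 had 8 sites in the CDS, of which 4 were 8mers, and its reads over all sites were 182, 5, 23, 77 and 0. Zfp266 had 6 coding sites and Zfp961 had 5, all of the latter 8mers, and neither had reads at e15.5 or in the adult. The highest number at a Zfp961 site was 117, at e18.5. In Zfp266, 2 pairs of sites lay next to each other with the same read numbers, 5 at e12.5 for 1 pair and 25 at P7 for the other. Whether reads of zinc finger genes map to several of these genes was not tested.

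Other genes with many sites were of different kinds. Foxo3, a transcription factor of stress response and cell survival, had 8 sites, of which 2 were in the CDS, 2 in the 3′UTR and 4 in introns. Fgfr2 had 7 and the locus Gm20388 10 intron sites only, and Gm28049 had 7 sites, all listed in introns and 2 of them in the 3′UTR as well. Ubr4 and Zbed6 had 5 sites each. Transcripts overlap in some of these genes, so that 1 site can be listed as coding and intronic.

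Below these, some genes with 4 sites, chosen after their values were seen, are known for roles in the liver or in miRNA action. Apob, the structural protein of very low density lipoproteins, had 4 coding sites and no 3′UTR site, with 121, 201, 17, 80 and 136 reads over all of them. Ago2, the protein that was precipitated, had 2 sites in its 3′UTR and 2 in introns, with 101, 14, 11, 0 and 0 reads. Mki67, which encodes the proliferation marker Ki-67, had 283, 428, 207, 41 and 0 reads, highest at e15.5 and absent from the adult table. Itgb1, the β1 integrin, held an 8mer annotated as CDS and 3′UTR with 87 reads at e12.5 and none at the other stages.

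Slc25a37, the iron importer of mitochondria in red cell precursors (mitoferrin-1), had 3 sites in its 3′UTR and 2 in introns. Its 7mer-A1 site, shown for its read number, lies at chr14:69244585-69244614 (−):
Slc25a37, 7mer-A1: ttctcctccttcctccagagGAATGTAgct
It had 3473, 3806, 352, 10 and 0 reads, highest at the earliest stages and absent from the adult table. A conserved 8mer in the same 3′UTR, with a score of 1, had 37 reads at e15.5 and 5 at e18.5 and none elsewhere. Ncoa4, the receptor that delivers ferritin for breakdown, had a 7mer-A1 site in its 3′UTR with 5089, 2521, 519, 107 and 0 reads. The Ncoa4 site, and the order of these sites by reads, were chosen after their values were seen.

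The reads on red cell marker genes also differed between stages. Clusters on 8 of 9 erythroid marker genes took 283707, 301121, 320274, 168618 and 12116 reads per 1000000 mRNA cluster reads (cluster rpm), and Epb42 had no cluster at any stage. Most of these were on the α-globin genes Hba-a1 and Hba-a2, which carried near-equal numbers (127903 and 127902 at e12.5), as reads of near-identical genes listed at both would. Slc4a1 and Klf1, which mark red cell precursors, were both at 0 in the adult. Slc4a1, the anion exchanger of the red cell membrane, stood at 2189, 2825, 1335, 716 and 0 cluster rpm, and the Slc25a37 site at 332, 777, 90.1, 2.96 and 0, both highest at e15.5. The marker list as a whole was highest at e18.5, where the Slc25a37 and Ncoa4 sites were lower than at e15.5. The 8 hepatocyte markers took 3983 cluster rpm at e12.5 and 72380 in the adult. The other lists were also higher in the adult than at e12.5. The 8 leukocyte markers took 78.6, 243, 855, 550 and 580 cluster rpm, highest at e18.5. The endothelial markers went from 92.0 at e12.5 to 1311 in the adult, the stellate and mesenchymal markers from 201 to 600, and the cholangiocyte markers from 15.2 to 51.0. The stellate and mesenchymal list was at 907 at P7, and its genes differed. Col3a1, Dcn and Lrat were higher in the adult than at e12.5, Col1a1 and Des were lower, and Pdgfrb was near level (46.4 and 45.9). Fewer cells of a type and less RNA per cell cannot be told apart in whole liver, and the part of cell composition in the site numbers was not tested.

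The sites listed at all 5 stages, taken as cluster rpm, had different courses. Ppap2b, a phosphatase of lipid phosphates, was highest at e18.5 and P7, with 48.9, 33.5, 307, 492 and 122 cluster rpm. Psmd1, a subunit of the proteasome's regulatory particle, was highest at e12.5 and e15.5, with 281, 549, 40.5, 31.1 and 3.28 cluster rpm. Ccnf, which encodes cyclin F, was highest at e15.5 with 131 cluster rpm and lowest in the adult with 7.46. Cnot6l, a deadenylase of the CCR4-NOT complex and the only 8mer of the 6, was between 21.8 and 66.3 cluster rpm up to P7 and at 8.06 in the adult.

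Mknk2, a kinase of the translation factor eIF4E, was between 7.27 at e12.5 and 37.3 at P7. Cbx5, which encodes the heterochromatin protein HP1α, varied without order, with 1.53, 27.1, 1.54, 31.4 and 6.56 cluster rpm. The scores of conservation were 0.897 or higher at all of these sites except that of Ccnf, at 0.032.

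In the CDS, 9 sites of 7 or 8 bases were listed at all 5 stages, among them the Psmd1 site. The Foxo3 and Ldha sites are shown for the highest read shares among the others (chr10:42196552-42196581, − strand, and chr7:46851876-46851905, + strand):
Foxo3, 7mer-m8: acacagaacgttgttggttTGAATGTgggg
Ldha, 7mer-m8: gtgcctgtgtggagtggtgTGAATGTtgcc
The Foxo3 site had 55.2, 114, 28.4, 79.7 and 225 cluster rpm, from raw numbers of 577, 560, 111, 269 and 753. The Ldha site, in lactate dehydrogenase A, was at 2.39 and 7.55 at the first stages and between 62.7 and 131 at the 3 later ones. Ctsc (cathepsin C) and Slc7a2 (a transporter of basic amino acids) were lowest at e12.5, with 12.3 and 6.31 cluster rpm, and highest in the adult, with 77.9 and 61.5. Slc40a1, the iron exporter ferroportin, was between 4.10 and 6.52 up to P7 and at 40.6 in the adult. Hspa5, the chaperone BiP, Klhl9, an adaptor of a ubiquitin ligase, and Ndufa4, a subunit of the respiratory chain, had no single direction, with ranges of 0.957 to 21.2, 8.98 to 42.1 and 2.05 to 39.1.

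**Figure D5:**
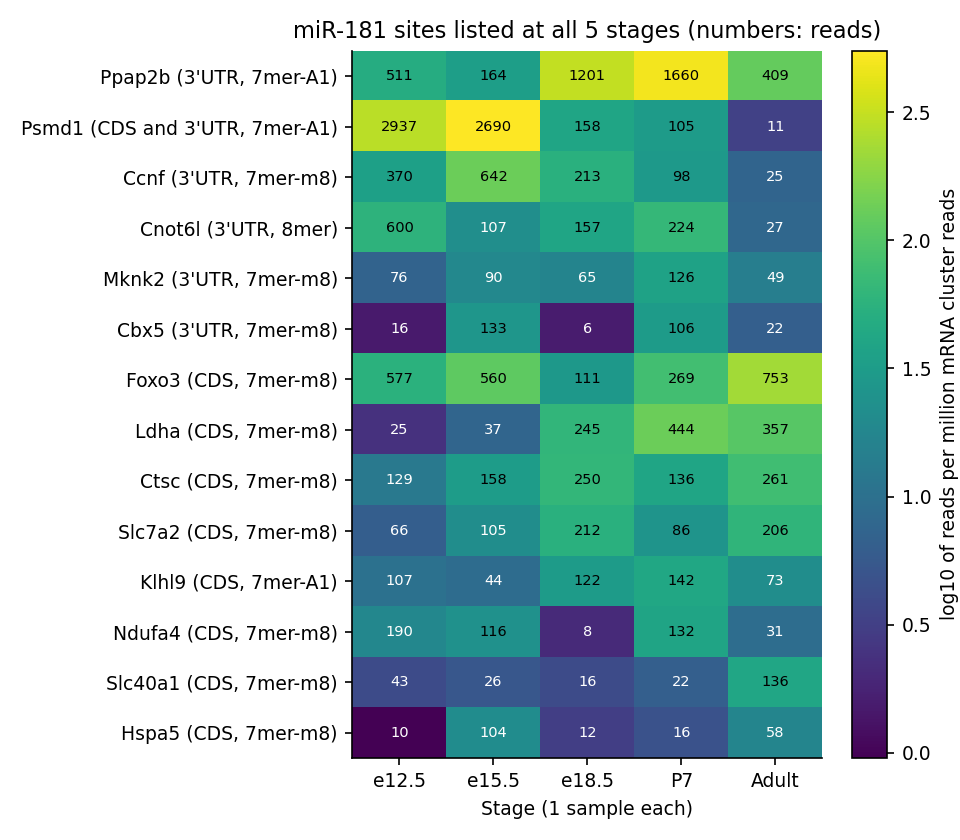
The 14 miR-181 sites of 7 or 8 bases in the 3′UTR or CDS that were listed at all 5 stages, with region and site type. Colour gives log10 of cluster rpm and the number in each cell the reads as listed, for example 2937 reads at e12.5 and 11 in the adult for Psmd1.

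Between e12.5 and the adult, 32 mRNA sites of 7 or 8 bases were listed at both stages with at least 50 reads at 1 of them. Of these, 6 (18.8%) were at least 2-fold lower in the adult and 21 (65.6%) at least 2-fold higher, with a median log2 difference of 1.90. Among 12128 such sites of any seed, 22.8% were lower and 45.9% higher, with a median of 0.72, so higher values in the adult were common among sites that passed this filter. The filter leaves out sites absent from either table, and mRNA cluster reads were 10451583 at e12.5 and 3351505 in the adult. Some sites, such as F12 with 6 and 92 reads, reached 50 reads only in the adult. The counts of higher and lower sites therefore depend on the filter.

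The ranking that follows covers only these 32 sites. Sites absent at either stage, such as those of Ncoa4 and Cps1, are not in it. The lowest adult values relative to e12.5 were those of Psmd1 (log2 difference −6.42), Cnot6l (−2.83), Ccnf (−2.25), an 8mer in the CDS shared by Fastkd5 and Ubox5 (−1.81), and Zfand6 (−1.52). The highest were F12, which encodes coagulation factor XII (5.58), Col18a1, a collagen (5.57), Ldha (5.48), the Golgi mannosidase gene Man2a1 (5.45) and the ceramide synthase gene Cers2 (4.35). The Man2a1 site is a conserved 8mer, with 8 reads at e12.5, none at the stages between and 112 in the adult. F12 had 6 reads at e12.5 and Cers2 9, so these differences start from few reads.

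Some of the mRNA sites listed with the most reads, chosen after their values were seen, lay in the CDS of genes for liver proteins. A site outside any gene had a higher number than any of them, 119316 reads at its highest stage. A 6mer in the CDS of Afp, the fetal serum protein α-fetoprotein, had 1085, 2164, 455, 432 and 0 reads. Cps1, the entry enzyme of the urea cycle, had a conserved 7mer-m8 in its CDS with 1272 reads in the adult and none at the other stages. A 6mer in the CDS of Serpina6, the globulin that binds corticosteroids, had 5127, 2959, 185, 0 and 286 reads. An 8mer in H19, an imprinted long noncoding RNA of fetal tissue, lay outside mRNA and had 3560, 130, 1826, 1388 and 0 reads (chr7:142575760-142575789, − strand):
H19, 8mer: agctttgagtctctccgtaTGAATGTAtac

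Of the 3′UTR sites with the most reads, 3 more with conservation scores of 1 are shown, since their numbers were highest at the first embryonic stages (chr3:146439165-146439194, chr5:32492131-32492160 and chr12:32379700-32379729, all + strand):
Ssx2ip, 8mer: tggaagtgtagcctttactTGAATGTAtac
Ppp1cb, 7mer-m8: ttcactaataattgccatgTGAATGTtgtt
Ccdc71l, 6mer: gacttatgtcaatgtcagtcGAATGTttac
Ssx2ip, which encodes a protein of centrosomes and cell junctions, had 656, 1608, 124, 10 and 0 reads. Ppp1cb, a catalytic subunit of protein phosphatase 1, had 862, 1459, 271, 154 and 0. Ccdc71l, with a 6mer only, had 4877, 2891, 558, 161 and 40. As cluster rpm, all of these were highest at e15.5, at 328, 298 and 590, and the first pair was absent from the adult table. Alb, the main serum protein made by hepatocytes, differed from them, with a 6mer in its CDS listed at every stage at 306, 69, 374, 404 and 283 reads.

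A list of 35 genes reported as miR-181 targets in other tissues was also looked up. Of these, 32 had an mRNA site of some miRNA in the tables, and 16 of the 32 had a miR-181 site in the CDS or 3′UTR, compared with 13.7% of all 14348 genes in the tables. The list had a 3′UTR site for 13 genes, against 6.50% of all genes. A 3′UTR site of 7 or 8 bases was listed for 9 genes of the list, against 518 of all 14348 genes. By group, sites were found in 5 of 7 genes of cell survival, 4 of 8 of phosphatases and Ras signalling, 3 of 7 of Wnt, TGF-β and NF-κB signalling, 3 of 8 of transcription and chromatin, and 1 of 2 of RNA binding and lymphoid genes. The genes differ in length and level from the average gene, and the part of these in the difference was not tested.

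Mcl1, which protects cells from apoptosis, was the member of the list with a 3′UTR site of 7 or 8 bases at 3 stages, and this site is shown (chr3:95662512-95662541, + strand, 7mer-A1):
Mcl1, 7mer-A1: ggcaggaatcaaatgactaaGAATGTAata
This conserved site had 0, 33, 73, 8 and 0 reads. A 6mer in the same 3′UTR had 237, 108, 97, 19 and 0 reads. Cd69, an activation marker of lymphocytes, had a 3′UTR site with 48 reads at e12.5 and 19 at P7, and Bcl2l11, which promotes apoptosis, had one with 17 reads at e15.5 and 6 at e18.5. No miR-181 site in the CDS or 3′UTR was listed for Bcl2, Atm, Timp3 or Nlk. The tables hold only clusters of at least 5 reads, so a gene without a site may still be bound below that level.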

How the data were processed

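Per the study's methods, raw reads went through the FASTX-Toolkit and were then aligned by Bowtie against mm10 and miRNA precursors (miRBase), after which the authors grouped overlapping reads into clusters, searched cluster sequences for seed matches and took the annotation from UCSC refGene and Ensembl. The submitters' processing notes name mm9 beside mm10, and the deposited positions fit GRCm38. The deposited read column is a signal, not scaled to library size, with a lowest value of 5, and it differed among sites of a cluster in 9.67% of clusters. The deposited conservation score and the free energy score were used as given. Tool versions of the authors are not given in the sources used here.

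The lists of an embryonic table were joined, clusters overlapping on a strand being counted once (208193, 81121, 76948, 124781 and 81194 clusters by stage), and reads of the lists were added. For a miRNA with several gene copies the highest number was taken. Values in rpm refer to the miRNA reads, and cluster rpm to the reads of mRNA clusters (3351505 to 10451583 per library). A minimum of 10 rpm at either stage and a pseudocount of 1 rpm were used for log2 differences of miRNAs. Zinc finger genes were named by symbol in counts of genes, and by at least 3 patterns of cysteine, 2 to 4 residues, cysteine, 12 residues, histidine, 3 to 5 residues and histidine in counts of sites. Sequences came from GRCm38 and RefSeq. Named were the 10 genes with most sites and those tied with the tenth, up to 10 sites of 7 or 8 bases listed at all stages in each region, the 5 largest differences in each direction, reported targets with such a 3′UTR site at 3 or more stages, and the 5 nearest miRNAs. Other names were chosen after their values were seen. A gene that this rule names is not reported here. The members and lists were chosen with earlier results of these data known. Wilson intervals, ratios and the joining of clusters were tested on simulated data. No tests between stages were made. Python 3.11.15, pandas 2.3.3, numpy 2.4.6, scipy 1.17.1, pysam 0.24.0, samtools 1.23.1, Biopython 1.88 and matplotlib 3.10.9 were used.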

Additional observations from a re-analysis of the deposited data

How the results depend on the processing

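No direction was reversed in any of the alternatives run. The log2 difference of the family's share of miRNA reads between the adult and e12.5 was −2.32, and it was −2.72 when gene copies were added, −1.33 when scaled by the study's total reads, −2.22 and −2.35 with the first or second list alone, and −0.96 for miR-181a-5p alone. The log2 difference of the share of clusters with a site was −0.43 over all clusters, −0.61 for sites of at least 7 bases, −0.89 in the 3′UTR and −0.24 with the first list alone. It stayed within the counting interval in the other 5 alternatives, of which the CDS without zinc finger genes was added after the data were seen. The CDS percentage of 61.0% was 54.6% with at least 7 bases, 63.1% for sites in at least 2 libraries and 58.6% without sites under both regions. The 463 genes with at least 2 sites became 149 with at least 7 bases, 233 with at least 20 reads and 80 with sites in at least 2 libraries. The share of zinc finger symbols among them, 5.83%, was 12.8% with at least 7 bases, and 8.86% with finger patterns in translated coding sequences, an alternative added after the data were seen because the planned protein table was not used here. The 932 genes with a 3′UTR site became 518 with at least 7 bases and 295 with sites in at least 2 libraries. The cause of these differences was not tested, beyond the smaller number of sites that each stricter rule leaves. No paired analysis was possible because the labels give 1 sample per stage and no test was made.

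With 1 labelled sample per stage, the spread between animals is unknown, and the intervals cover counting error only. Each embryonic stage joins lists that the tables do not explain. The adult values rest on the fewest sites, 588 in all and 32 clusters with an 8mer. The number taken as miRNA reads is not explained in the tables. Annotation under several transcripts puts some sites in both CDS and 3′UTR, and reads of repeated sequence, as in Ahnak, are listed at several places.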
